A study of Mus musculus with 12 samples.

Results

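Expression of 8 channel genes was compared along the mouse cochlea, between its apical, its middle and its basal turn. They are Kcnh1 and Kcnh5 of the eag channels, Kcnh2 and Kcnh7 of the erg channels, Kcnh3 of the elk channels, and the hyperpolarization-activated channel genes Hcn2, Hcn3 and Hcn4. The members were all probes that are no array controls and carry one of these gene names, which gave 92 probes of the 165865 used and 8 genes of 19505. Each of the 12 single-color exon arrays held RNA of one turn, with 4 arrays for each turn. The mice were male C57BL/6, a wild-type inbred strain that loses high-frequency hearing with age, and were 6 weeks old. They were killed under anesthesia with ketamine and pentobarbital, and the methods name no other treatment. The tissue was the whole turn, with stria vascularis and spiral ligament as well as the organ of Corti and the ganglion, and each array was given 25 ng of total RNA. Equal RNA was loaded for each turn, so a value is a share of the RNA of that turn, and fewer cells of a type cannot be told apart from less RNA per cell. Per the methods the turns were cut from the cochleae of 4 mice, so arrays of different turns share mice. Nothing in the labels ties a sample number to one mouse, so the 12 arrays were tested as separate samples and the p-values measure the spread between them. Each turn was hybridized and scanned on a slide of its own, and slide and turn cannot be told apart.

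The Kcnh genes encode voltage-gated potassium channels in 3 groups, eag, erg and elk, whose subunits share a cyclic-nucleotide-binding-like domain inside the cell. Erg channels close slowly after depolarization and hold back repeated firing, and the erg1 channel of Kcnh2 is best known as the repolarizing channel of the heart whose loss prolongs the QT interval. The Hcn genes belong to the same superfamily but open on hyperpolarization, carry an inward cation current (Ih) and are opened further by cyclic AMP. In the cochlea Ih is a known current of spiral ganglion neurons, which carry the signal of the hair cells to the brainstem, and both Ih and potassium conductances of these neurons are known to differ along the cochlea.

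On each array 77.4% to 81.4% of the spots were well above background, and the 75th percentile of the signal before scaling was between 534 and 721.6. Markers of the labeled tissue were present: 10 of 10 hair cell markers, 10 of 10 spiral ganglion neuron markers and 5 of 5 spiral ligament fibrocyte markers had a probe well above background in every turn. The same held for 4 of 4 heart muscle and 4 of 4 skeletal muscle markers, so this presence does not tell one tissue from another. The signals are fluorescence intensities scaled to the 75th percentile of each array. A signal of one gene cannot be set against that of another, because probes differ in how brightly they bind, and all comparisons are between turns within a gene.

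A few of the probes are shown here because the results turn on what they can and cannot separate. Probes are numbered in 5' to 3' order of the gene, positions are in build mm9, and every probe is 60 bases long. Among the probes of the members and of Kcnh4, Kcnh6 and Kcnh8, 2 held the coding sequence of the selectivity filter, the stretch of the pore that selects ions. The capitals mark it, as GGNTTTGGN or GGNTTCGGN in Kcnh genes and GGNTATGGN or GGNTACGGN in Hcn genes, read on the strand of the probe.
Kcnh5 probe 7 (chr12:76188412-76188471, minus strand): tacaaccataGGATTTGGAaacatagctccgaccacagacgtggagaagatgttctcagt
Hcn4 probe 4 (chr9:58703353-58703412, plus strand): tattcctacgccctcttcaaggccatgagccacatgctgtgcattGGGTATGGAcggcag
The Kcnh letters were found in 0.661% and the Hcn letters in 0.415% of all 165865 probes, so neither pattern is particular to channels. Both probes were brighter in the apex: Kcnh5 probe 7 by 1.86 on the log2 scale (SE 0.509, adjusted p = 0.0157 by limma) and Hcn4 probe 4 by 1.55 (SE 0.279, adjusted p = 0.00178).

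Genes of these families are alike in sequence, and some probes of different genes lie over matching stretches. Every pair of probes from different genes among these 11 genes was aligned without gaps, and 33 of 7757 pairs had 40 or more identical bases. The closest pair lies just behind the selectivity filter of the erg channels, with 54 of 60 bases identical between Kcnh2 and its relative Kcnh6. A pair of the Hcn genes had 44 of 51 aligned bases identical. Capitals mark the bases that the 2 probes of a pair share.
Kcnh2 probe 7 (chr5:23831312-23831371, minus strand): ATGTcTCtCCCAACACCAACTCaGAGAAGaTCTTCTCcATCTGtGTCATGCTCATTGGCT
Kcnh6 probe 6 (chr11:105880406-105880465, plus strand): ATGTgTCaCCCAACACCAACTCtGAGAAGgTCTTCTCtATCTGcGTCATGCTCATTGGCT
Hcn2 probe 4 (chr10:79191740-79191799, plus strand): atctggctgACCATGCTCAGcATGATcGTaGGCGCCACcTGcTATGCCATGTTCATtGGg
Hcn3 probe 4 (chr3:88954832-88954891, minus strand): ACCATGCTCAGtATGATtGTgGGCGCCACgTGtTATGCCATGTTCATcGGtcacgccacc
Hcn2 probe 4 and Hcn3 probe 4 were both brighter in the apex, by 1.58 (SE 0.321, adjusted p = 0.00354) and 1.69 (SE 0.425, adjusted p = 0.0104). The erg pair differed in its behavior and is described with the single probes. Whether RNA of one gene gave signal on the probe of another was not tested.

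The RefSeq table of promoters (build GRCm38.p6, not the build of the arrays) held 6 of the 8 members. The 250 bases before the start of the 4 members that differed 2-fold or more between turns are shown, because these genes moved together, with each GC box (GGGCGG, or CCGCCC for the other strand) in capitals. Overlapping boxes would be counted apart. The entry for Kcnh2 belongs to a start that lies 22093 bases inside the gene as the RefSeq gene table spans it, while those of Kcnh5, Hcn2 and Hcn4 lie at the outer end of the gene.
Kcnh5 (chr12:75177333-75177582, minus strand): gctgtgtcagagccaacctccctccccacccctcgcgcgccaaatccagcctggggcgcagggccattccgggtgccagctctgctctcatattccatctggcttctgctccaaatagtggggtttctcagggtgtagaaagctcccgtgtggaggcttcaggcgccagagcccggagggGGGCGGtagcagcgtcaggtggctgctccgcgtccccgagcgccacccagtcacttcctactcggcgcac
Kcnh2 (chr5:24329592-24329841, minus strand): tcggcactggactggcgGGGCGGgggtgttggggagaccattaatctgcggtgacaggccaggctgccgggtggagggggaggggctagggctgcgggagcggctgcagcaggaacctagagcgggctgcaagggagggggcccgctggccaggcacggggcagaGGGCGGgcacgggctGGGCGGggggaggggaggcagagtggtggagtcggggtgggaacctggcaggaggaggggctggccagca
Hcn2 (chr10:79716384-79716633, plus strand): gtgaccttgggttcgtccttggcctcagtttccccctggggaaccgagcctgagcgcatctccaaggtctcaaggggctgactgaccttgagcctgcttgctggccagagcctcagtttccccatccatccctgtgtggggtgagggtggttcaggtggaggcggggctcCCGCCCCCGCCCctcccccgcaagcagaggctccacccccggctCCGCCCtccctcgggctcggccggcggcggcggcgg
Hcn4 (chr9:58822699-58822948, plus strand): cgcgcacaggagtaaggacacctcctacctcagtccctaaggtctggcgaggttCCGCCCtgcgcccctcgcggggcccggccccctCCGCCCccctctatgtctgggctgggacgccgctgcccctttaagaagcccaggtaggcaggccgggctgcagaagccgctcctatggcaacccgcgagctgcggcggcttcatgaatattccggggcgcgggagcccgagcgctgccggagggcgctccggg
There were 3 boxes for Kcnh2, 3 for Hcn2, 2 for Hcn4 and 1 for Kcnh5. The members that did not differ 2-fold held them too, with 4 for Kcnh7 and 1 for Kcnh1, and 32.7% of all 32851 promoters in the table held at least 1 in the same window. These are matches of letters and no sites of binding.

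Expression of 5 of the 8 members was greater in the apical than in the basal turn: Kcnh5, Kcnh2, Hcn2, Hcn3 and Hcn4. None was greater in the base by limma's moderated contrast at an adjusted p under 0.05, and 0 were at an unadjusted p under 0.05 or by plain analysis of variance. Of all genes, 17.6% were called higher in the apex and 21.6% lower. The median log2 difference of the members was 0.99, against -0.04 over all genes. The members were chosen with earlier results of these data known. Their counts and median beside those of all genes or probes are therefore a description and no test. Of the 5 members higher in the apex, all but Hcn3 also passed the F test over the 3 turns with a difference of 2-fold or more, as did 3.27% of all genes in that direction. The F test alone was passed by 7 members, all except Kcnh3, and by 38.7% of all genes. The array ranges of the apex and the base did not overlap for the same 5 members, which were higher in the apex, nor for Kcnh1, which was higher in the base, and 38.3% of all genes had such ranges in either direction. These calls depend on the scaling for the whole array: with each array scaled to its spike-in controls the median of all genes moved to -0.45, 4.7% of genes were called higher in the apex and 68.7% lower, and the same count of 5 members was higher in the apex with 2, Kcnh1 and Kcnh3, lower. With each array scaled to its median, 11.6% and 32.2% of genes were called, and 5 members were higher in the apex and 1, Kcnh1, lower. The size of the differences depends on the processing more than the calls do. The normexp background correction was run with 50 added to each corrected signal, which makes the folds of dim genes smaller. With it the same 5 were called, but none by 2-fold. The apex-minus-base differences were then 0.626 for Kcnh5, 0.74 for Kcnh2, 0.956 for Hcn2, 0.247 for Hcn3 and 0.719 for Hcn4. With spike-in scaling only Kcnh5 stayed past 2-fold (1.237), against 0.814 for Kcnh2, 0.769 for Hcn2, 0.382 for Hcn3 and 0.934 for Hcn4.

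The middle turn was close to the apex. Between the apex and the middle turn only Kcnh1 passed, with less signal in the apex, where 7.61% of all genes were called higher in the middle turn. No member was higher in the apex than in the middle turn by limma, by plain analysis of variance or at an unadjusted p under 0.05, and 4.42% of all genes were called in that direction. The median difference of the members was 0.01 on the log2 scale. Between the middle turn and the base 7 members were higher in the middle turn, all except Kcnh3, where 11.6% of all genes were called in that direction. Of the 7, Kcnh5, Kcnh2, Hcn2 and Hcn4 differed 2-fold or more (2.2% of all genes). The array ranges of middle turn and base did not overlap for 5 members (12.5% of all genes in that direction), and those of apex and middle turn for Kcnh1 alone (13.5%). The calls of Kcnh1 and Kcnh7 in this comparison did not last through other processing, as given with each gene. The comparisons share arrays and are not independent of each other.

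**Figure D1:**
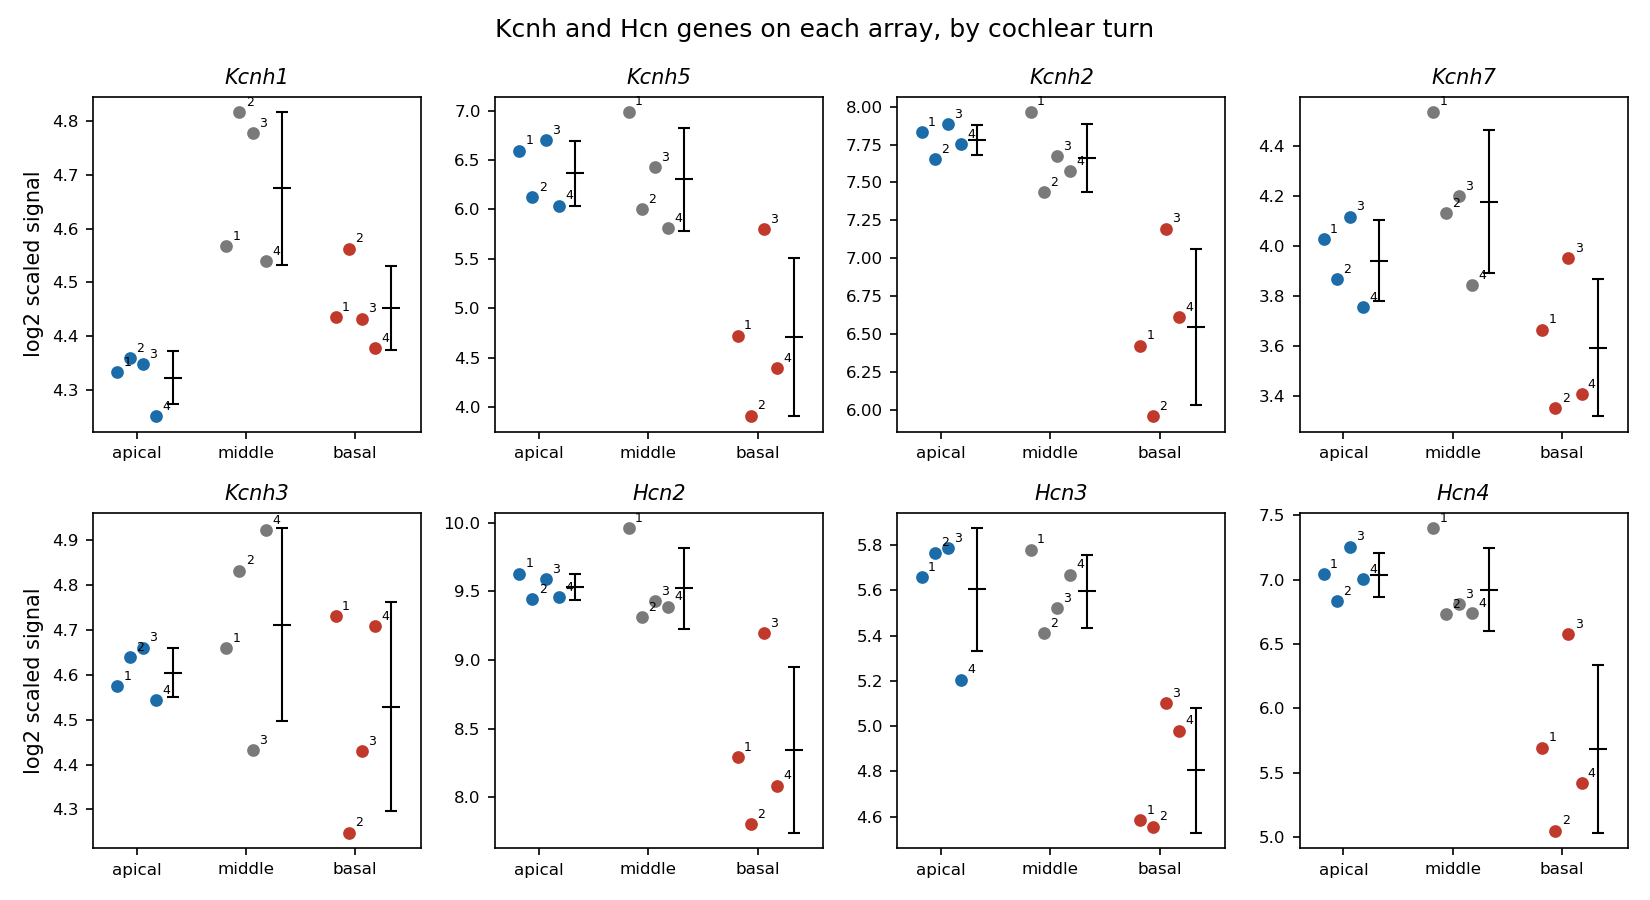
Each panel plots 1 gene, with the log2 scaled signal on the vertical axis (a different range in each panel) and the 3 turns on the horizontal axis. Points are single arrays with their sample number, and the bar beside them is the mean ± SD of 4 arrays. For Kcnh5, Kcnh2, Hcn2, Hcn3 and Hcn4 all 4 basal arrays sit below all apical and middle arrays, and in each of these basal replicate 3 is the highest basal array and basal replicate 2 the lowest.

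Kcnh5, which encodes the eag2 channel, showed the largest difference of the 8. Its signal was 96.59, 69.7, 103.9 and 65.8 on the apical arrays, 127, 64.05, 86.01 and 56.13 on the middle arrays and 26.45, 15.09, 55.81 and 21.02 on the basal arrays, in the order of the sample numbers. The base was lower than the other turns on every array, but basal replicate 3 nearly reached middle replicate 4. Mean signals were 84.0 ± 19.1, 83.3 ± 31.7 and 29.6 ± 18.1 (SD, n = 4 arrays). The apex was 3.15-fold above the base (log2 difference 1.655, SE 0.374, adjusted p = 0.00464) and the middle turn 3.03-fold (1.60, SE 0.374, adjusted p = 0.0128), from the means of log2 values as for all folds here. The fold of this dim gene depends on how low signals are treated. The apex-minus-base difference was 0.626 with normexp and its added 50 (adjusted p = 0.00587 by limma). It was 1.149 with 16 added to each signal (adjusted p = 0.0037). With normexp the difference of Kcnh5 was no longer the largest, since Hcn2 (0.956), Kcnh2 (0.74) and Hcn4 (0.719) differed more. The background correction was not tested apart from the added 50. Between the apex and the middle turn the difference was 0.06, with a 95% interval of -0.77 to 0.88, which includes differences of nearly 2-fold. The spread in the base was 0.801 log2 units (SD), where the median gene had 0.115. Of its 11 probes, which span chr12:75998266-76277503 on the minus strand, 9 were well above background on all 4 apical arrays and 2 on all 4 basal arrays.

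Kcnh1, which encodes the eag1 channel (chr1:194014909-194333389, plus strand), was nearly even. Its signal was 20.16, 20.52, 20.36 and 19.03 on the apical arrays, 23.73, 28.19, 27.41 and 23.25 on the middle arrays and 21.63, 23.64, 21.6 and 20.8 on the basal arrays. All apical arrays were below all others, by small steps. The apex was 1.28-fold below the middle turn (log2 difference -0.35, SE 0.071, adjusted p = 0.0124), the middle turn was 1.17-fold above the base (0.22, SE 0.071, adjusted p = 0.0474), and apex and base differed by -0.13 (SE 0.071, adjusted p = 0.186). Only 3 of its 12 probes were well above background in any turn. From these 3 alone the apex differed from the middle turn by -0.06 (adjusted p = 0.617) and the middle turn from the base by -0.07 (adjusted p = 0.507), and neither was called. The middle-against-base call was lost under 11 of 13 other settings, with the sign turned under 3 of these, and was lost without 9 of the 12 arrays, each left out in turn.

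Kcnh2, the erg1 gene (chr5:23825407-23857217, minus strand), had the smallest adjusted p of the 8 between the apex and the base. Its signal was 228, 201.2, 235.8 and 215.6 on the apical arrays, 250, 173.3, 204.2 and 190.9 on the middle arrays and 85.87, 62.16, 146.7 and 97.82 on the basal arrays. The groups of the base and of either other turn did not overlap. The means were 220.2 ± 15.1, 204.6 ± 32.8 and 98.1 ± 35.6 (SD, n = 4 arrays). The apex was 2.35-fold above the base (log2 difference 1.23, SE 0.212, adjusted p = 0.000923) and the middle turn 2.17-fold (1.12, SE 0.212, adjusted p = 0.00502). The difference between apex and middle turn was 0.12, with a 95% interval of -0.35 to 0.58. Nearly all of its probes could be read, with 14 of 15 well above background on all apical arrays and 13 on all basal arrays. In the RefSeq table a noncoding RNA gene of the other strand, Gm15589, overlaps Kcnh2, and its part in the signal was not tested.

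Kcnh7, the erg3 gene (chr2:62541102-63022118, minus strand), was dim. Its signal was 16.31, 14.58, 17.34 and 13.49 on the apical arrays, 23.19, 17.49, 18.36 and 14.36 on the middle arrays and 12.69, 10.21, 15.48 and 10.61 on the basal arrays. The arrays of the turns overlapped in every comparison. The middle turn was 1.497-fold above the base (log2 difference 0.58, SE 0.161, adjusted p = 0.0257), and the apex differed from the base by 0.35 (SE 0.161, adjusted p = 0.116). Only 2 of 15 probes were well above background on all apical arrays and 1 on all basal arrays, Kcnh7 probe 14, which was higher in the apex by 0.69 (SE 0.118, adjusted p = 0.00129). The middle-against-base call was lost under 7 of 13 other settings and without 3 of the 12 arrays, with adjusted p up to 0.14. The apex-against-base difference passed without basal replicate 3 (0.47, adjusted p = 0.0343), with only the probes well above background (0.59, adjusted p = 0.0262) and with the sample number as a block (0.347, adjusted p = 0.0262), and turned in sign with spike-in scaling (-0.071, adjusted p = 0.706).

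Kcnh3, which encodes an elk channel (chr15:99055423-99073231, plus strand), passed in no comparison. Its signal was 23.83, 24.94, 25.31 and 23.34 on the apical arrays, 25.26, 28.5, 21.6 and 30.33 on the middle arrays and 26.55, 19, 21.55 and 26.15 on the basal arrays, with overlap between all turns. Its difference between apex and base was 0.08, with a 95% interval of -0.20 to 0.35 and an adjusted p of 0.693 by limma. The interval does not cover the scaling: with spike-in scaling the difference was -0.342 (adjusted p = 0.0144 by limma). It also rests mostly on probes near background, which can hide a difference. Of its 15 probes 5 were well above background in the apex, and these differed by -0.09 to 0.22 between apex and base.

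**Figure D2:**
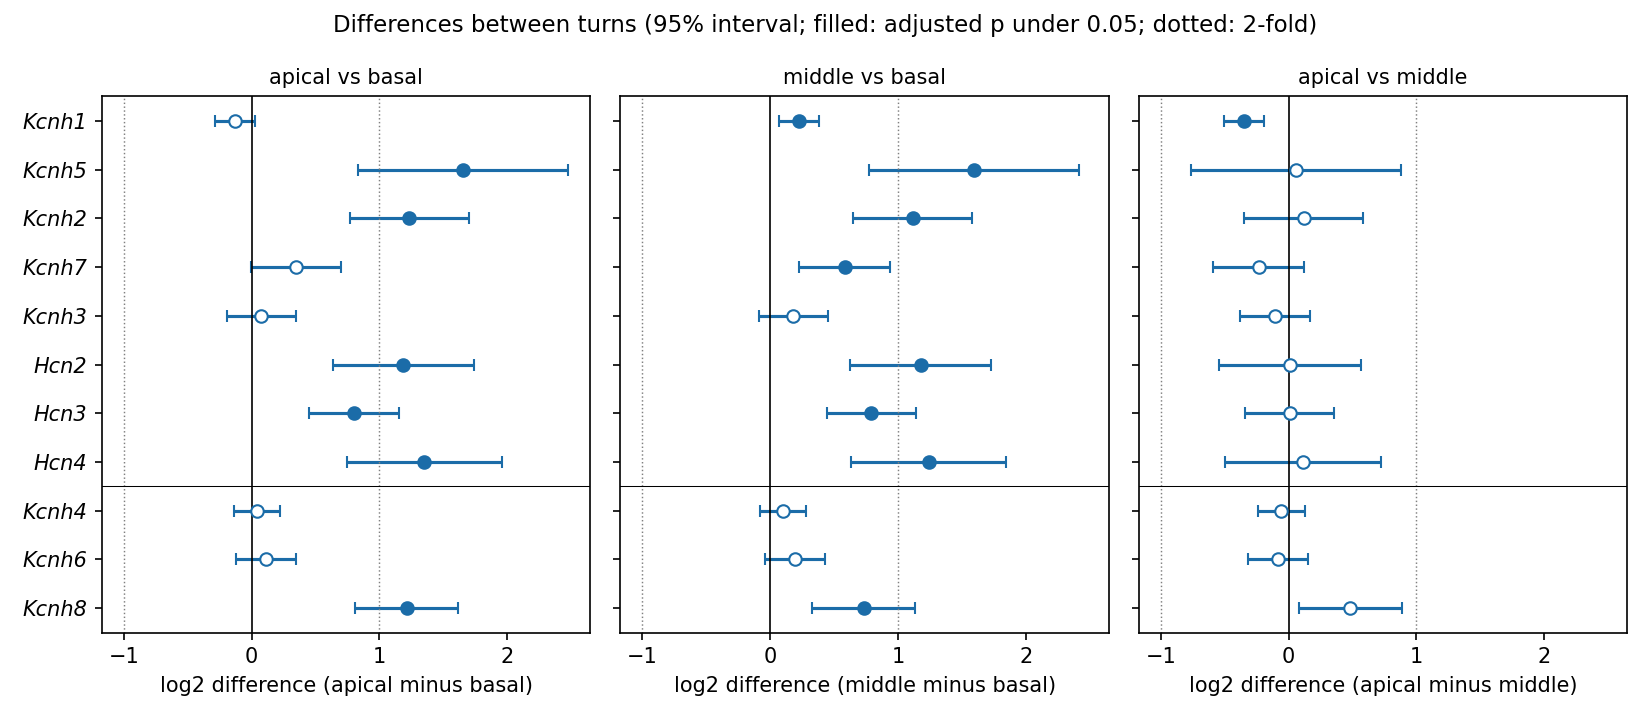
Log2 differences between turns are plotted on the horizontal axis for the 8 members and, below the line, for 3 relatives, with 95% intervals and filled points where the limma adjusted p was under 0.05. Kcnh5, Kcnh2, Hcn2, Hcn3 and Hcn4 lie between 0.80 and 1.655 for apex minus base and between 0.79 and 1.60 for middle minus base, and near 0 for apex minus middle.

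All 3 Hcn members were lower in the base than in the other turns. Hcn2 (chr10:79179825-79198471, plus strand), whose channel opens fast and responds strongly to cyclic AMP, had signals of 791.9, 697.1, 771 and 704.2 on the apical arrays, 996.7, 635.2, 688 and 670.5 on the middle arrays and 313.3, 223.4, 586.2 and 271.6 on the basal arrays. Basal replicate 3 lay closest to the lowest middle array, and the ranges did not overlap. The apex was 2.28-fold above the base (log2 difference 1.19, SE 0.252, adjusted p = 0.00323) and the middle turn 2.26-fold (1.18, SE 0.252, adjusted p = 0.00874), while apex and middle turn differed by 0.01 with a 95% interval of -0.55 to 0.56. The call for Hcn2 depends on how probes are joined: with the mean of linear signals, which one bright probe dominates, the apex-minus-base difference was 0.16 (adjusted p = 0.225), and without that probe, a choice made after its values were seen, it was 1.36 on the log2 average (SE 0.279, adjusted p = 0.00274).

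Hcn4 (chr9:58672044-58708744, plus strand) encodes the slow channel of the cardiac pacemaker. Its signal was 131.9, 114.2, 153.1 and 128.5 on the apical arrays, 169.2, 106.3, 112.4 and 107.03 on the middle arrays and 51.77, 33.1, 95.31 and 42.71 on the basal arrays. All basal arrays were below all others. The means were 131.9 ± 16.1, 123.7 ± 30.4 and 55.7 ± 27.5 (SD, n = 4 arrays). The apex was 2.55-fold above the base (log2 difference 1.35, SE 0.277, adjusted p = 0.00264), the middle turn 2.36-fold (1.24, SE 0.277, adjusted p = 0.0106), and the apex differed from the middle turn by 0.11 with a 95% interval of -0.50 to 0.72. The 4 heart muscle markers had a median difference of 0.09 between apex and base, with summed signals of 177 to 217.6 on the apical arrays and 186.2 to 211.3 on the basal arrays.

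Hcn3 (chr3:88951031-88963806, minus strand), whose channel is known for a weak response to cyclic AMP, had the smallest difference of the 5 called members. Its signal was 50.52, 54.46, 55.2 and 36.91 on the apical arrays, 54.99, 42.55, 45.95 and 50.91 on the middle arrays and 23.99, 23.5, 34.3 and 31.55 on the basal arrays. Apical replicate 4 was low and lay close to basal replicate 3. The apex was 1.74-fold above the base (log2 difference 0.80, SE 0.159, adjusted p = 0.00218), the middle turn 1.73-fold (0.79, SE 0.159, adjusted p = 0.0065), and the difference of apex and middle turn was 0.01 with a 95% interval of -0.34 to 0.36. In the base 2 of its 8 probes were well above background on all arrays, against 5 in the apex.

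The single exon probes showed how far each change ran along its gene. Of the 92 member probes 44 were higher in the apex and none in the base by limma, against 18% and 16.4% of all probes. Without any single array the count was between 39 and 45. All 11 probes of Kcnh5 were higher in the apex, as were 14 of 15 for Kcnh2, 7 of 8 for Hcn2, 6 of 8 for Hcn4 and 3 of 8 for Hcn3. A further 3 belonged to Kcnh7, and none to Kcnh1 or Kcnh3. Each probe was also compared with the mean of the other probes of its gene. There 10 of the 92 differed (5 of Kcnh2, 2 each of Hcn2 and Hcn4, 1 of Hcn3), against 10.4% of all probes in genes with 3 or more probes, which is near the background.

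**Figure D3:**
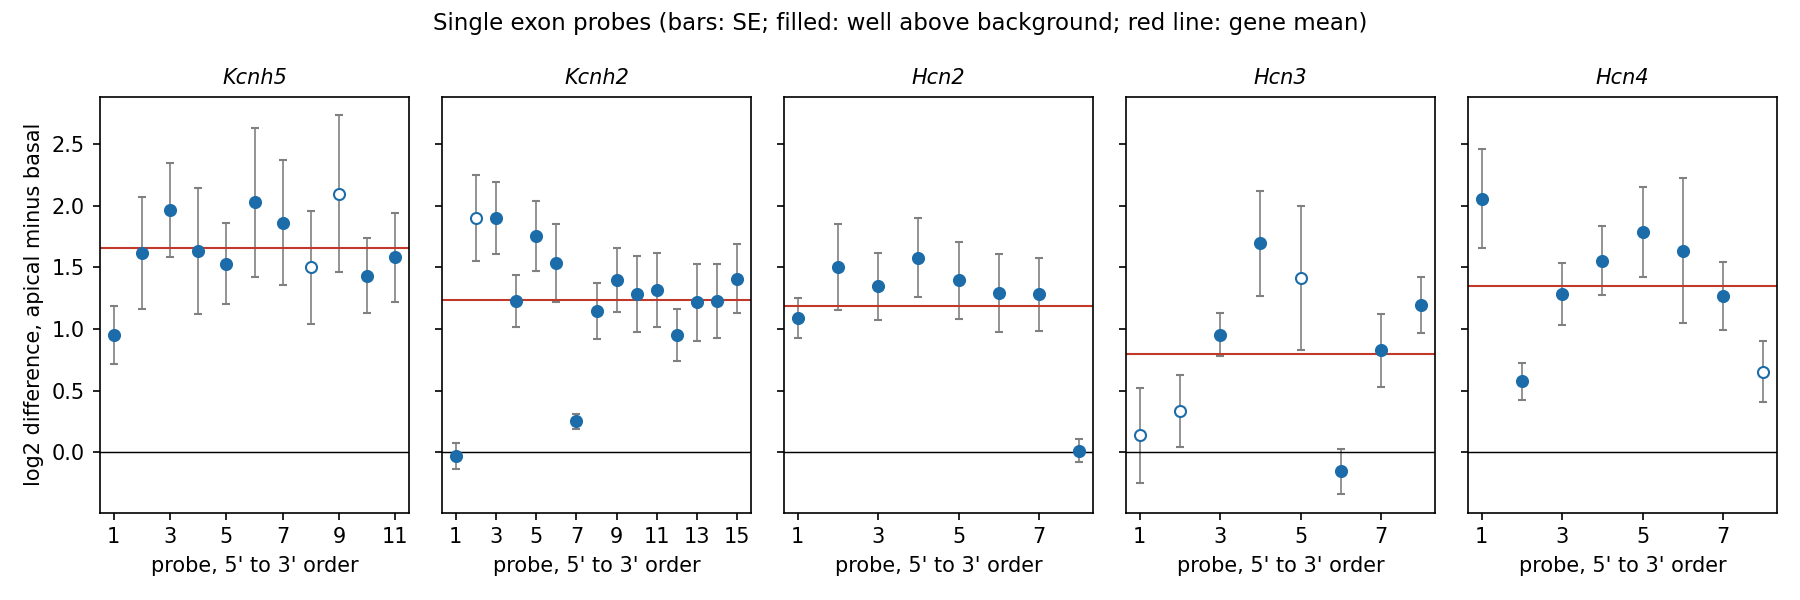
The apical-minus-basal log2 difference of every probe is plotted in 5' to 3' order for the 5 called members, with bars for SE, filled points for probes well above background on all 4 arrays of the apex or the base, and a red line at the gene's mean. Kcnh2 probes 1 and 7 (-0.03 and 0.25), Hcn2 probe 8 (0.01) and Hcn3 probe 6 (-0.15) lie near 0, while the other filled points lie at 0.575 or more.

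Hcn2 probe 8, the last of the gene (chr10:79198412-79198471, plus strand), stood apart from the rest. Its mean signal was 17605 on the apical arrays, 19062 on the middle arrays and 17435 on the basal arrays, a log2 difference of 0.01 (SE 0.094), where probes 1 to 7 differed by 1.09 to 1.58. The difference between this probe and the others was -1.34 (adjusted p = 0.0077). Its G and C content was 81.7%, and in the RefSeq table Polrmt, the mitochondrial RNA polymerase gene, lies next to Hcn2 on the opposite strand. Their part in the flat signal was not tested.

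In Kcnh2 the first probe (chr5:23857158-23857217, minus strand) had signals of 84.2, 95.2 and 85.8 on the apical, middle and basal arrays, a difference of -0.03 between apex and base and of -1.35 from the other probes (adjusted p = 0.0101). Probe 7, printed above, had 765.4, 728.3 and 643.7, a difference of 0.25 (SE 0.06, adjusted p = 0.0085) and of -1.05 from the other probes (adjusted p = 0.0232). The matching probe of Kcnh6, with 54 of 60 bases in common, went the other way within its gene: its signal was 72.8, 56.3 and 25.6, higher in the apex by 1.51 (SE 0.274, adjusted p = 0.00193) and by 1.51 more than the other probes of Kcnh6 (adjusted p = 0.00346). Kcnh7 probe 7, which shares 48 of 57 aligned bases with Kcnh2 probe 7, differed by 1.17 (adjusted p = 0.0476) but was not among the 2 Kcnh7 probes well above background. Beside it, Kcnh6 probe 8 shares 50 of 60 bases with Kcnh2 probe 9, and these were higher in the apex by 0.76 (adjusted p = 0.0115) and 1.40 (adjusted p = 0.00216). At the other end of the range, Kcnh2 probe 3 had 145.1, 106.99 and 38.8, a difference of 1.90 (SE 0.294, adjusted p = 0.000763). Leaving out probes 1 and 7, a choice made after their values were seen, gave a difference of 1.41 for the gene (SE 0.245, adjusted p = 0.000991).

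In Kcnh5 the probe differences ran from 0.952 for probe 1 to 2.03 for probe 6 among those well above background, and none differed from the others. In Hcn4, probe 1 had signals of 84.5, 76.8 and 20.3 and differed by 2.06 (SE 0.4, adjusted p = 0.00273), and probe 2 had 145.4, 158 and 97.6 and differed by 0.575 (SE 0.15, adjusted p = 0.0128). Hcn3 probe 6 had 75.6, 102.7 and 84.1 and differed by -0.15 (SE 0.182, adjusted p = 0.571), while Hcn3 probe 4 differed by 1.69. The RefSeq table lists Pklr, a pyruvate kinase gene, as overlapping the 3' end of Hcn3, and its part in the signal of Hcn3 was not tested.

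Kcnh4, Kcnh6 and Kcnh8, relatives that are not members, were measured too, and 1 of these 3 was higher in the apex than at the base (17.6% of all genes). Kcnh8, an elk channel gene, had 30.29, 24.41, 41.72 and 19.67 on the apical arrays, 19.51, 22.72, 19.47 and 18.46 on the middle arrays and 11.45, 12.04, 11.62 and 13.06 on the basal arrays, and was 2.32-fold higher in the apex (log2 difference 1.21, SE 0.183, adjusted p = 0.000405), with 3 of its 11 probes well above background in the apex and 1 in the base. The brightest of these 3, Kcnh8 probe 6, was nearly even, with 853.4, 916.6 and 951.5 on the apical, middle and basal arrays. It differed by -0.16 between apex and base (SE 0.078, adjusted p = 0.147 by limma) and by -1.51 from the other probes (adjusted p = 0.00427). The 4 basal arrays of Kcnh8, where 1 probe was well above background, lay close together, unlike those of the Hcn members. Kcnh4 and Kcnh6 differed by 0.04 and 0.11 (adjusted p = 0.753 and 0.481).

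Of 12 genes on the arrays for proteins that bind or mature these channels, 1 was higher in the apex than at the base, 2 were lower and 9 did not pass, with a median of -0.09. These counts do not exceed the shares of all genes called, 17.6% higher in the apex and 21.6% lower. The gene that was higher was Pex5l, the TRIP8b protein that binds the tail of Hcn channels and sets their surface number and response to cyclic AMP (0.93, SE 0.19, adjusted p = 0.00256, 1.91-fold). Lower in the apex were Kcne2, a single-pass subunit known to bind erg1 and Hcn channels (-0.97, SE 0.21, adjusted p = 0.00372), and Fkbp8, a chaperone in the folding of erg1 (-0.38, SE 0.089, adjusted p = 0.00595). Of 10 adenylyl cyclases, which make cyclic AMP, 4 were higher in the apex (17.6% of all genes), 1 lower (21.6% of all genes) and 5 did not pass, with a median of 0.12. Adcy1, a cyclase of neurons switched on by calcium and calmodulin, had the largest difference (1.18, SE 0.262, adjusted p = 0.00413, 2.27-fold). Adcy8 (0.36), Adcy5 (0.36) and Adcy3 (0.35) were called with small differences, and Adcy6 was lower (-0.23, adjusted p = 0.0103).

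Markers of some cell types moved with the members and those of others moved the opposite way. The shares of all genes called were 17.6% higher in the apex than at the base and 21.6% lower. Of 10 spiral ganglion neuron markers 8 were higher in the apex than at the base and 1, Prph, the peripherin of type II neurons, was lower (-0.34, adjusted p = 0.0335), with a median difference of 1.44. Their summed signal was between 28622 and 37480 on the apical arrays, 25927 and 46061 on the middle arrays and 5683 and 24199 on the basal arrays. Of 10 hair cell markers 9 were higher (median 1.36, sums of 15351 to 19625, 11788 to 13709 and 4936 to 7338), and of 7 Schwann and satellite glia markers 6 were (median 0.72, sums of 13058 to 14731, 13944 to 16773 and 6497 to 12473), with Pmp2 not above background in any turn. A sum follows the brightest genes of its list most, such as Ocm for hair cells and Nefl for neurons. Of 6 markers of melanocytes and strial intermediate cells 5 were lower in the apex (median -0.80), and of 5 spiral ligament fibrocyte markers 4 were lower (median -0.37). Also lower were 3 of 5 strial marginal cell markers and 4 of 5 macrophage markers, with none higher. The 6 supporting cell markers were split, with 3 higher and 2 lower. The part of these cell types in the differences of the channel genes was not tested.

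The spread within the base ran along with the neuron markers and the markers of Schwann and satellite glia. Basal replicate 3 was the highest basal array and basal replicate 2 the lowest for Kcnh5, Kcnh2, Kcnh7, Hcn2, Hcn3 and Hcn4. The summed neuron markers were 11345, 5683, 24199 and 8538 on the 4 basal arrays, highest and lowest on the same arrays, and 46061 on middle replicate 1, which was also the highest middle array for these 6 genes. The Schwann and satellite glia markers had the same order, with sums of 8927.5, 6496.7, 12473 and 7751 on the basal arrays and 16773 on middle replicate 1. The hair cell markers were 6266, 4936, 6672 and 7338 on the basal arrays and were also lowest on basal replicate 2, but highest on basal replicate 4. What part these cells have in the spread was not tested. Without basal replicate 3 the differences between apex and base were 2.02 for Kcnh5, 1.45 for Kcnh2, 1.47 for Hcn2, 1.65 for Hcn4 and 0.93 for Hcn3.

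**Figure D4:**
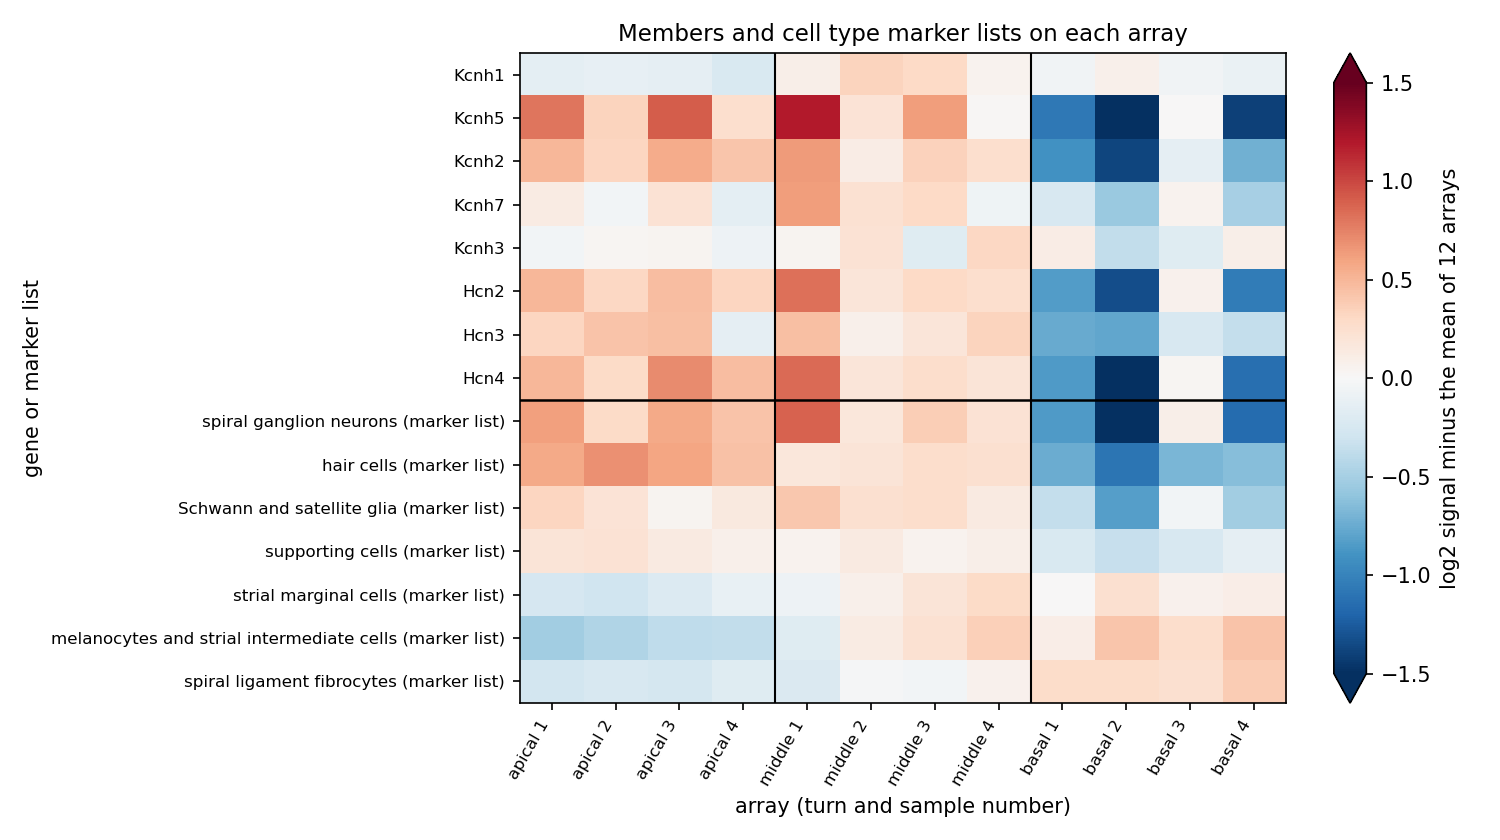
Each row is a member or the mean of a cell type marker list, each column 1 of the 12 arrays, and the color is the log2 signal minus the mean of the row over the 12 arrays, from -1.5 (blue) to 1.5 (red), with values past either end drawn in the end color. Kcnh5, Kcnh2, Hcn2 and Hcn4 are palest in the base on replicate 3 and darkest blue on replicate 2, as are the lists of spiral ganglion neurons and of Schwann and satellite glia.

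The genes most like each of the 4 members that differed 2-fold were sought among genes with a probe well above background on every array, by the root mean square difference of centered log2 values over the 12 arrays. For Kcnh5 they were Scn8a, the sodium channel of axon initial segments and nodes (0.125), Mtap1a, a microtubule-binding protein of neurons (0.128), and Fgf12, which binds sodium channels (0.13), where the median over 16007 genes was 0.937. For Kcnh2 they were Ap3b2 (0.069), Smad9 (0.08) and Reep2 (0.102), with a median of 0.645 over all genes. For Hcn2 they were Sult4a1 (0.043) and Ndrg4 (0.046), with a median of 0.674. For Hcn4 they were Grin1, the obligatory subunit of NMDA receptors (0.059), Mapk8ip2 (0.061) and Dnm1, the neuronal dynamin (0.064), with a median of 0.738. Among the members themselves the closest were Hcn2 and Hcn4 (0.102), then Hcn2 and Kcnh2 (0.134) and Kcnh2 and Hcn4 (0.16), while Hcn2 and Hcn3 were 0.33 apart. These figures describe likeness over 12 arrays that share slides and tissue composition. The named genes are the closest of 16007, so values far below the median follow from the search. A gene with no change over the arrays would lie near those medians, at 0.919 from Kcnh5, 0.624 from Kcnh2, 0.652 from Hcn2 and 0.717 from Hcn4.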

How the data were processed

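RNA of 12 cochlear turns was measured on single-color Agilent exon arrays. The authors extracted the fluorescence intensity of each spot with Agilent Feature Extraction 10.7.3.1, and the deposited processed signal is background-subtracted and detrended but not normalized between arrays. Controls (7914 of 180880 spots) and 622 flagged spots were left out, which left 165865 probes. Each array was scaled so that its 75th percentile equaled 640.8, the median of the arrays. Log2 values of repeated spots and then of the probes of a gene name were averaged (R 4.3.3 with the data.table package, version 1.17.8), with no pseudocount and no filter.

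Turns came from the labels. Differences were tested over all 12 arrays and 19505 genes with limma 3.58.1 (lmFit, eBayes) and Benjamini-Hochberg adjustment. A call is an adjusted p under 0.05 for a contrast, and the second rule is the moderated F test with 2-fold. Single probes were tested likewise over all probes. The tests were checked on simulated data. A slide block could not be fitted. The precision is limited by 4 arrays a turn.

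The members and gene lists were chosen with earlier results of these data known. All members were named. Of the partner lists, called genes and extremes were named, and of the probes the largest and smallest differences well above background, besides those that stood apart, which were chosen after their values were seen. Some genes are not reported here.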

Additional observations from a re-analysis of the deposited data

Results flagged for a closer look

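Hcn4 in the middle turn had 1 array far from the others: middle replicate 1 had a scaled signal of 169.2, where the other 3 arrays had 106.3, 107.03 and 112.4, a gap past Dixon's 95% critical value for 4 values. It was 1 of 24 groups of 4 arrays examined (8 genes in 3 turns), and chance alone passes about 1 in 20 groups. The summed spiral ganglion neuron markers were also highest on this array among the middle arrays (46061, against 25927, 29804 and 26766), as were those of Schwann and satellite glia (16773, against 14192, 14186 and 13944).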

How the results depend on the processing

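Results were recomputed under 27 alternatives, of which 12 left out 1 array each. Leaving out the probes of Hcn2 or of Kcnh2 that stood apart gave only the difference of that gene, and the others gave the counts of members. The count of probes was recomputed only with normexp, with probes well above background, with the sample number as a block and with each array left out. Kcnh5, Kcnh2, Hcn3 and Hcn4 were called lower in the base, against both other turns, under every alternative run, and Hcn2 under all but the mean of linear probe signals. The sizes moved more: between apex and base 4 members were called by 2-fold or more, but 0 with normexp (differences of 0.247 to 0.956), 1 with spike-in scaling, 3 with the mean of linear signals and 5 with the median of probes. With that mean, the middle-against-base count was 4 and Hcn2 differed by 0.261 (adjusted p = 0.0827). The apex-against-middle count was 0 with normexp, quantile normalization, probes well above background only, the median of probes and the mean of linear signals. With 1 array left out the counts were 5 to 6 (apex against base, with 6 without basal replicate 3), 1 in each case (apex against middle), 5 to 7 (middle against base, with 5 without basal replicate 4) and 39 to 45 (probes).

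Signs turned only for differences that were small or not called, and the cause was not tested. Between apex and base, Kcnh3 was -0.084 (quantile), -0.041 (median scaling), -0.342 (spike-in scaling, adjusted p = 0.0144) and, with arrays left out, between -0.018 and 0.143, and Kcnh7 was -0.071 (spike-in). Between apex and middle turn, Kcnh5 was -0.047 (normexp), -0.021 (quantile), -0.06 (median of probes) and -0.102 (spike-in), Hcn3 was -0.059 (normexp), -0.039 (quantile), -0.044 (median scaling) and -0.151 (spike-in), and Hcn2 was -0.043 (median scaling), -0.15 (spike-in) and -0.099 (mean of linear signals). Kcnh2 was -0.043 and Hcn4 -0.046 with spike-in scaling, Kcnh7 0.116 with probes well above background only, and Kcnh3 0.015 with the mean of linear signals. Between middle turn and base, Kcnh1 was -0.035 (spike-in), -0.074 (probes well above background only) and -0.041 (mean of linear signals), and Kcnh3 was -0.076 (spike-in) and -0.002 (mean of linear signals). With arrays left out, the apex-minus-middle difference ran from -0.108 to 0.285 for Kcnh5, from -0.061 to 0.156 for Hcn2 and from -0.053 to 0.142 for Hcn3.

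Pairs of arrays from different turns were correlated over all genes, on deviations from each gene's turn mean and not on the signals themselves. Same-numbered pairs correlated at -0.037 to 0.227, with a mean of 0.095 and 6 of 12 over 0.1. Differently numbered pairs had a mean of -0.031, with 2 of 36 over 0.1. Deviations cancel out within each turn, so the mean of one kind of pair largely fixes that of the other and is no separate comparison. Same-numbered pairs were more often over 0.1, but not every one was, and the numbers were not used to pair the samples. The turns share mice, and whether a number marks 1 mouse was not settled. With the sample number as a replicate block the counts were 6 (apex against base), 1 (apex against middle), 7 (middle against base) and 44 (probes), and Kcnh7 was called between apex and base (0.347, adjusted p = 0.0262). A slide block was not run, since each slide held 1 turn. Signal over background limits Kcnh1, Kcnh7 and Kcnh3, of whose probes 3 of 12, 2 of 15 and 5 of 15 were well above background in the apex.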
